A study of Sus scrofa with 4 samples.

Results

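Solute carrier (SLC) genes encode membrane proteins that move sugars, amino acids, ions, metals, vitamins, nucleotides and lipids into cells and organelles, and the number after SLC in a symbol names the family. They were taken as every probe on the array whose RefSeq accession maps to a pig symbol that begins with SLC and a digit. The rule found 79 genes from 32 families, read by 159 probes, among 3020 genes named in this way over 6686 of the 43603 probes. A probe was tested where both KO arrays, or both WT arrays, flagged it as well above background, which left 63 of the 79 genes and 126 of the 159 probes.

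As a rule, SLC carriers do not hydrolyse ATP to drive transport. Uniporters such as the glucose transporter GLUT4 let a solute run down its gradient, cotransporters draw on sodium or proton gradients, and exchangers swap a solute for another. In a thymus, which is filled with dividing thymocytes in a scaffold of epithelium, macrophages, vessels and fat, carriers differ with cell type: proliferating lymphocytes export lactate through monocarboxylate carriers, macrophages carry metal and arginine transporters, and fat and muscle carry the insulin-responsive GLUT4.

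The arrays measured total RNA of whole thymus from Minnesota miniature swine, with 2 arrays of knockout (KO) pigs labelled IL2RG+/- and 2 of wild-type (WT) pigs. IL2RG encodes the gamma chain shared by several interleukin receptors. The KO pigs carried a TALEN-made deletion in 1 copy of this X-linked gene, were cloned from edited cells by nuclear transfer, and were those with a rudimentary thymus among KO pigs that mostly had none. The paper reports that most of the KO pigs died within a week of birth. The ages of the pigs on these arrays, and whether the WT pigs were clones, are not given in the sources used here. The KO arrays describe what was left of the organ in 2 selected animals. Each array was a 1-colour (Cy3) Agilent pig array, and a level here is the log2 processed signal minus the 75th percentile of its array, so 0 is that percentile and a difference of 1 is 2-fold. A gene was read from its tested probe with the highest mean signal.

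The 75th percentiles lay between 621 and 762 intensity units. The share of probes well above background was 74.54 and 73.49% on the KO arrays and 67.93 and 68.15% on the WT arrays. KO replicate 1 shared a slide and a scan with WT replicate 2, and KO replicate 2 with WT replicate 1. The targeted gene checked the labels: the IL2RG level was -3.15 and -3.29 in KO against -0.13 and 0.52 in WT, and the log2 fold change was -3.41 (SE 0.27, adjusted p = 0.00256 in limma, n = 2 arrays per genotype). All 12 thymocyte markers fell, their summed signal being 29.7 and 28.7 times the 75th percentile in KO and 171 and 242 times in WT, and all 7 proliferation markers fell. Macrophage markers rose in 9 of 10 cases, fibroblast markers in 4 of 4, endothelial and epithelial markers in 3 of 4 each, and adipocyte markers in 4 of 9. Among all tested named genes, 25.2% were higher and 12.6% lower by the same rule, given below. In bulk RNA, fewer cells of a type and less RNA per cell cannot be told apart, and whether these marker shifts account for any SLC value below was not tested.

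**Figure D1:**
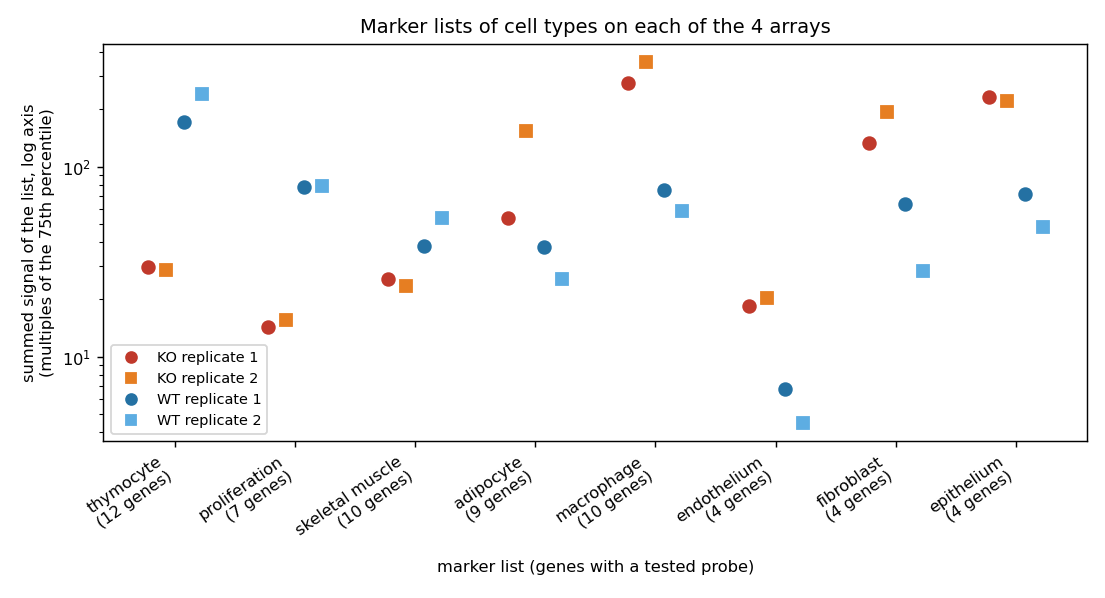
Summed signal of each marker list on the 4 arrays, in multiples of the array's 75th percentile, on a log axis; points are arrays, red and orange for KO and blue for WT. Thymocyte and proliferation lists sit lower on both KO arrays, macrophage, endothelial, fibroblast and epithelial lists sit higher, and the adipocyte list spans 53.8 to 153 in KO against 25.7 to 37.7 in WT.

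Of the 63 tested SLC genes, 14 were higher in KO (22.2%) and 7 were lower (11.1%) at an adjusted p under 0.05 in limma, taken over all 31959 tested probes, and a change of at least 2-fold. These shares lie near the background: 25.2% of the 2702 tested named genes were higher by the same rule and 12.6% lower. At 4-fold or more, 9 SLC genes were higher and 2 lower, where 12.7% and 4.03% of all named genes were. Both KO arrays lay outside both WT arrays for 50 of the 63 genes, above for 24 and below for 26, against 83.8%, 42.6% and 41.2% of all named genes. Among genes well above background on all 4 arrays, 60 of them SLC genes, 11 SLC genes were higher and 7 lower, beside 22.9% and 12.8% of the named genes. In either direction 21 SLC genes were called, where 37.7% of all named genes were. The median log2 fold change over the tested SLC genes was -0.16, and over all tested named genes it was -0.0015. Per probe, 24 of 126 were higher and 15 lower (19.0% and 11.9%), beside 21.0% and 13.0% of all tested probes. By their number, SLC genes were called about as often as other genes.

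The counts of higher genes fell when a KO array was left out. The spread then comes from the WT pair, whose arrays differed by 2-fold or more at 8.78% of the tested probes (2.34% for the KO pair), and the lone KO array is taken to vary in the same way. Without KO replicate 1, 9 genes were higher and 6 lower, and without KO replicate 2, 6 were higher and 6 lower, while the higher calls over all probes fell from 6713 to 4250 and 4014. Scaling to the median of each array moved the median of all tested probes from -0.06 to -0.32, and the split of SLC calls went from 14 higher and 7 lower to 11 and 10. With the log2 values deposited by the authors it was 10 and 8. No SLC gene called in the main setting changed sign under any alternative run, but for many runs this was fixed in advance. KO and WT values of the called genes did not overlap, so dropping an array cannot reverse a sign. The blocks, the intensity trend, the methods' t-test and the 4-fold threshold leave the log2 fold change as it was. The sign was open only where signal values or the probes read changed, such as with normexp or averaged probes. The smallest two-sided p of an exact permutation test over 2 against 2 arrays is 0.333, so no single gene could be tested that way. The KO arrays are of 2 pigs, and for the WT arrays nothing says more than that they were separate samples, so the p-values measure the spread between these arrays.

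**Figure D2:**
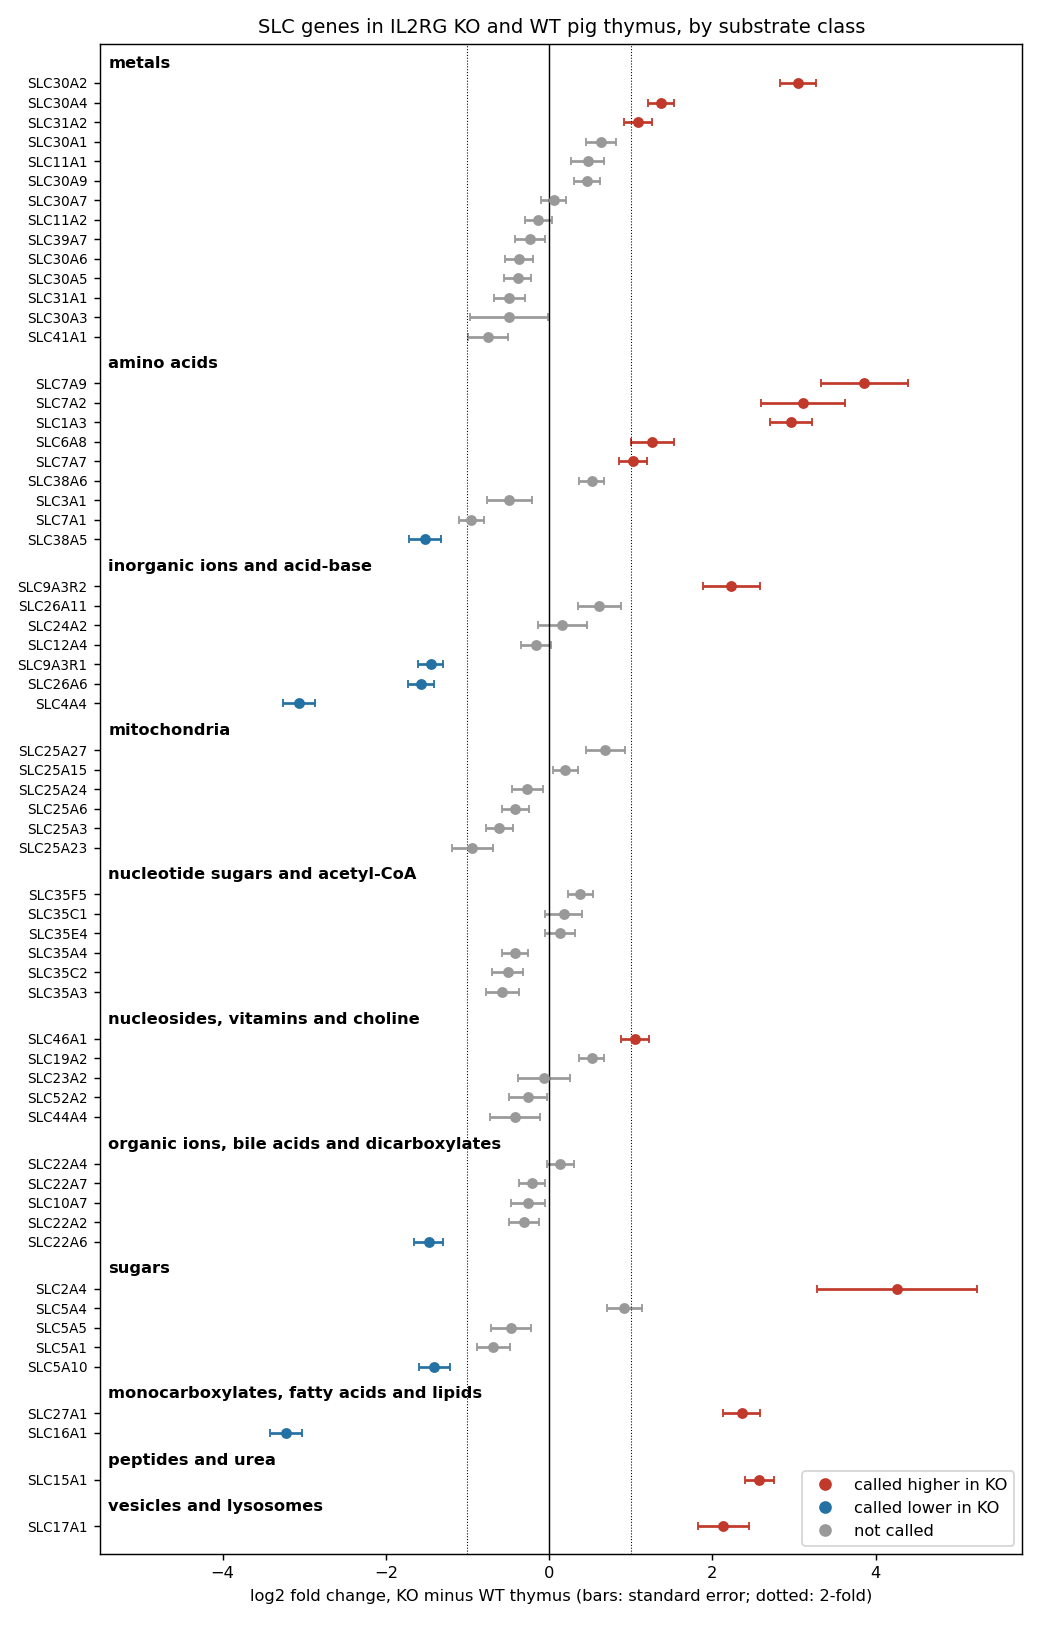
Log2 fold change (KO minus WT, bars show the standard error, n = 2 arrays per genotype) of 61 of the tested SLC genes, grouped by substrate class. Red points were called higher, blue points lower and grey points were not called; amino acid carriers hold 5 of the 14 rises, and mitochondrial and nucleotide sugar carriers stay between -0.94 and 0.69.

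Of 9 tested amino acid carriers, 5 were higher and 1 was lower, beside 25.2% and 12.6% of all named genes, and their median log2 fold change was 1.03. Whether a class differed from other genes was not tested, here or below. SLC7A9, the light chain of the renal and intestinal carrier of cystine and dibasic amino acids, read -1.40 and -1.37 in KO and -6.01 and -4.48 in WT. It was high and even in KO and near the detection limit in WT, where only 1 array was well above background. The log2 fold change was 3.86 (SE 0.54, adjusted p = 0.00754), which was 3.10 without WT replicate 1, 4.63 without WT replicate 2 and 1.70 with normexp background correction, a call each time. The other SLC7A9 probe had neither WT array well above background and gave a rise of at least 6.49-fold. SLC3A1, the heavy chain that carries SLC7A9 to the membrane, read -3.26 and -3.02 in KO and -2.98 and -2.32 in WT (log2 fold change -0.49, adjusted p = 0.216), so the chain and its partner were not called together.

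SLC7A2, a cationic amino acid transporter that brings arginine into activated macrophages and liver, read -1.96 and -1.62 in KO against -4.19 and -5.62 in WT. All of its KO values were above all of its WT values, and the WT arrays differed by more than the KO arrays did. The log2 fold change was 3.11 (SE 0.52, adjusted p = 0.0115), which became 2.94 (adjusted p = 0.0507) when KO replicate 2 was left out. The size moved more with WT replicate 1 left out (3.83), with WT replicate 2 left out (2.40) and with normexp (1.44), where the call held. Its relative SLC7A1, the general arginine carrier of dividing cells, lay the other way at 3.16 and 3.15 in KO and 4.16 and 4.05 in WT. That difference of -0.95 had an adjusted p of 0.0107 but stayed under 2-fold. It passed 2-fold with scaling to the median (-1.21) and was -0.77 with quantile normalization. A dimmer SLC7A1 probe gave -0.57 (adjusted p = 0.0591 in limma). SLC7A7, the light chain of the carrier that exports cationic amino acids in macrophages and epithelia, read 3.24 and 3.25 in KO and 2.33 and 2.09 in WT. Its 4 probes gave 0.85 to 1.03 with adjusted p-values of 0.0112 to 0.0202, so the gene stood at the 2-fold line and only its brightest probe was called. Scaling to the median brought SLC7A7 to 0.77, and leaving out KO replicate 1, KO replicate 2 or WT replicate 2 gave 1.04, 1.03 and 0.91, none of them a call.

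SLC1A3, the glutamate and aspartate carrier EAAT1, known from glia, read -0.99 and -0.97 in KO and -3.63 and -4.26 in WT. The KO arrays were nearly identical and far above WT. Both probes were called, at 2.96 (SE 0.26, adjusted p = 0.00299) and 2.48, and normexp gave 1.87 for the first. SLC6A8, the creatine transporter, stood at -0.41 and -0.45 in KO against -1.37 and -2.02 in WT, which is a rise of 1.26 (SE 0.26, adjusted p = 0.0205) that was 0.94 without WT replicate 2 and had adjusted p-values of 0.101 and 0.0992 without KO replicate 1 and 2. The lower member was SLC38A5, a sodium-coupled carrier of glutamine, serine and histidine, at 1.79 and 1.80 in KO and 3.50 and 3.13 in WT. Here WT was the high group, and the log2 fold change was -1.52 (SE 0.19, adjusted p = 0.00627), and the call held with each array left out. SLC38A6, of the same family, differed by 0.52 (adjusted p = 0.0494), and its other 3 probes gave -0.40 to 0.29.

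Macrophage markers moved alongside: their summed signal was 276 and 355 times the 75th percentile in KO and 75.4 and 58.4 in WT, with all 10 well above background on all 4 arrays. SLC7A2, SLC7A7 and SLC1A3 shared with that sum their lowest value in WT replicate 2. The adipocyte, endothelial, fibroblast and epithelial sums were also lowest there, as were SLC2A4, SLC27A1 and other higher SLC genes. The shared low array is thus not particular to macrophage markers.

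Among sugar carriers, SLC2A4 was higher. Its rise at the brightest probe was above that of the other SLC genes, but with probes averaged (2.88) or without WT replicate 2 (2.90) it was below that of SLC7A9 (3.42 and 4.63). The gene encodes GLUT4, which insulin brings to the surface of fat and muscle cells. KO arrays held levels of 1.43 and 2.35 and WT arrays -1.01 and -3.73, so the groups did not overlap but each was uneven, most of all WT. The log2 fold change was 4.26 with the largest standard error among the SLC genes (0.98, adjusted p = 0.0263). Within the slides it was 5.16 and 3.36. A further probe read -3.63 and -3.09 in KO and was not well above background in WT, a rise of at least 5.51-fold, whereas the third probe read -2.23 and -1.53 against -2.31 and -2.34 and was not called (0.45, adjusted p = 0.249). Leaving out KO replicate 1 or 2 gave 4.72 and 3.80 without a call (adjusted p = 0.0585 and 0.0948), and leaving out WT replicate 1 or 2 gave 5.62 and 2.90 with it. Normexp gave 3.47.

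The order of the arrays in SLC2A4, KO replicate 2 highest and WT replicate 2 lowest, was also that of the adipocyte marker sum (53.8, 153, 37.7 and 25.7 times the 75th percentile in KO replicates 1 and 2 and WT replicates 1 and 2). The macrophage, fibroblast and endothelial sums had that order too, so it is not particular to adipocyte markers. PLIN1, ADIPOQ, FABP4 and PPARG rose, and LPL, LIPE, LEP, CIDEC and RETN were not called. Skeletal muscle markers summed to 25.6 and 23.6 in KO and 38.2 and 53.9 in WT. Of these 10 markers 3 were lower and 7 not called, where 12.6% of all named genes were lower. SLC27A1, a fatty acid transport protein of fat and muscle, read 0.77 and 0.73 in KO and -1.36 and -1.86 in WT. Both KO arrays were high, and unlike SLC2A4 they were level with each other. All 3 SLC27A1 probes were called, at 2.36 (SE 0.22, adjusted p = 0.00345), 1.39 and 1.21, and their mean gave 1.65. The part of fat in the tissue in these values was not tested.

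The sodium-coupled sugar family SLC5 gave a fall and several differences under 2-fold. SLC5A10, a mannose and fructose carrier best known from kidney, read -1.10 and -1.31 in KO and 0.05 and 0.35 in WT. Its difference of -1.41 (SE 0.19, adjusted p = 0.00734) was -1.30 with an adjusted p of 0.0633 without KO replicate 2, and its other probe gave -0.16, so that the mean of both (-0.78) was no call. SLC5A1, the intestinal sodium and glucose cotransporter SGLT1, was below WT by all 4 tested probes (-0.91 to -0.65) without reaching 2-fold. SLC5A4, a relative with low affinity for glucose, stood at 0.30 and 0.14 in KO against -0.50 and -0.91 in WT, a difference of 0.92 (adjusted p = 0.0262). SLC5A5, the iodide carrier of the thyroid, was called lower by a dimmer probe (-1.03) and not by the probe that stands for it (-0.47).

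SLC16A1 had the deepest fall at the brightest probe of a gene, although SLC22A6 fell further (-4.47 against -3.12) when probes were averaged. SLC16A1 encodes MCT1, a proton-coupled carrier of lactate, pyruvate and ketone bodies that lymphocytes raise when they divide. The KO arrays read -2.80 and -2.44 and the WT arrays 0.56 and 0.65. Both pairs were tight and lay far apart. The log2 fold change was -3.22 (SE 0.20, adjusted p = 0.00208), the other 2 probes gave -3.12 and -3.01, normexp gave -2.54, and every alternative other than the methods' t-test with an adjustment kept the call. BSG, the chaperone that takes MCT1 to the membrane, read 0.51 and 0.57 in KO and 0.54 and 0.70 in WT (-0.08, adjusted p = 0.715). The 7 proliferation markers fell with SLC16A1, from 78.5 and 79.1 times the 75th percentile in WT to 14.3 and 15.6 in KO. All 12 thymocyte markers fell too, from 171 and 242 in WT to 29.7 and 28.7 in KO, so the shared fall is not particular to proliferation markers.

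**Figure D3:**
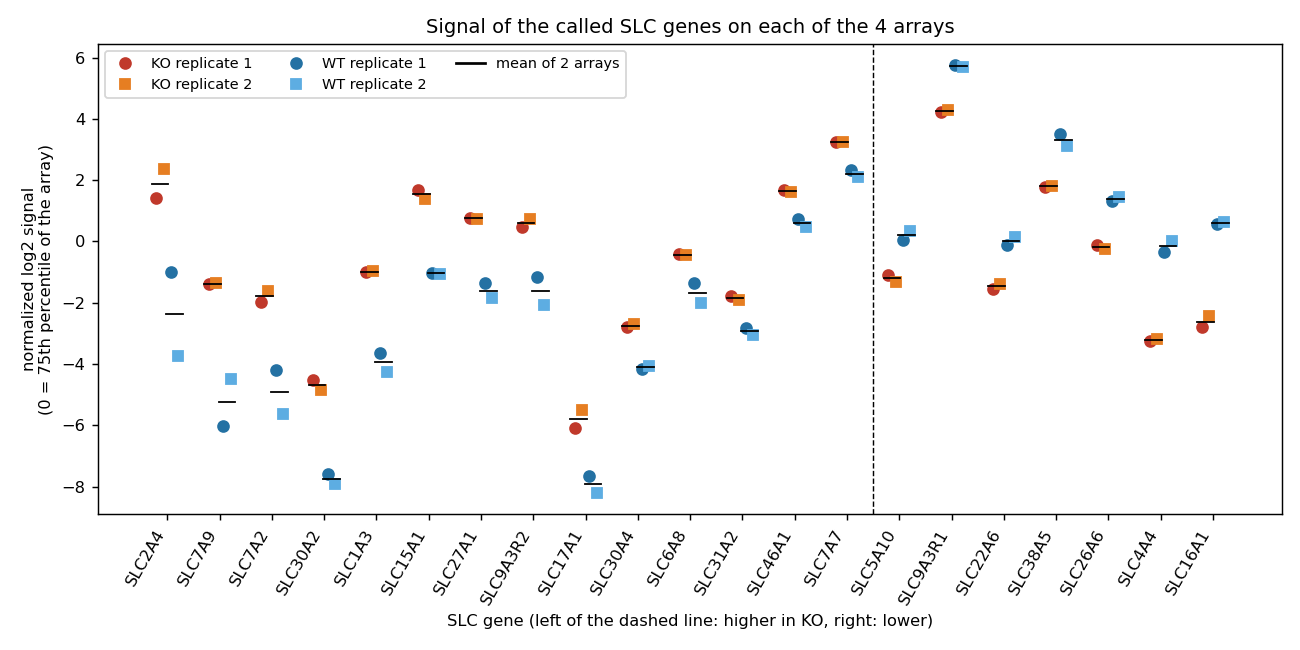
Normalized log2 signal on each array for the 21 called SLC genes, where 0 is the array's 75th percentile; circles and squares are replicates 1 and 2, red and orange KO, blue WT, and black bars the mean of 2 arrays. The 2 KO points of a gene mostly touch, whereas WT points spread for SLC2A4, SLC7A9 and SLC7A2, and levels of different genes are not comparable because probes differ.

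Carriers of ions and the proteins that anchor them moved both ways, with 1 rise and 3 falls among 8 tested, against 25.2% and 12.6% of all named genes. SLC4A4, a sodium bicarbonate cotransporter that sets cell pH, read -3.26 and -3.18 in KO and -0.34 and 0.02 in WT. The KO values were both low and close together, and the log2 fold change was -3.06 (SE 0.19, adjusted p = 0.00209) from its only probe, and -2.34 with normexp. SLC26A6, an exchanger of chloride for bicarbonate and oxalate, read -0.11 and -0.25 against 1.33 and 1.44. Its probes gave -1.57 and -1.62, with adjusted p-values of 0.00396 and 0.00343. SLC26A11, a sulfate carrier of the same family, was not called (0.62, adjusted p = 0.116).

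SLC9A3R1 and SLC9A3R2 bear SLC symbols but encode NHERF1 and NHERF2, scaffold proteins that tether the sodium and proton exchanger NHE3 and other membrane proteins. They went opposite ways. SLC9A3R1 read 4.24 and 4.29 in KO against 5.75 and 5.68 in WT, a tight fall of -1.45 (SE 0.15, adjusted p = 0.00413). SLC9A3R2 read 0.49 and 0.75 in KO and -1.17 and -2.06 in WT. It was above WT on both KO arrays and by both probes, at 2.23 (SE 0.35, adjusted p = 0.00987) and 2.17, although without KO replicate 2 the adjusted p was 0.0517. The potassium and chloride cotransporter SLC12A4 (-0.16) and the calcium exchanger SLC24A2 (0.16) were not called. The sodium gradient that many of these carriers use is kept by the sodium pump: among its subunit genes ATP1B1 (2.43) and FXYD2 (1.60) were higher and FXYD3 was lower (-1.43).

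SLC15A1, the proton-coupled peptide carrier PEPT1 of the gut, read 1.68 and 1.39 in KO and -1.01 and -1.07 in WT. It was well above background on every array, with no overlap. Its 2 probes gave log2 fold changes of 2.58 (SE 0.18, adjusted p = 0.00224) and 2.54, among the steadiest rises here. SLC15A2, the related PEPT2, had no tested probe. The epithelial marker sum was 233 and 222 in KO against 71.7 and 48.1 in WT, with KRT8, CLDN4 and CDH1 higher and EPCAM not called.

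Metal carriers formed the largest class by tested genes, and all 14 were tested. In limma 3 were higher and none lower, beside 25.2% and 12.6% of all named genes. At an unadjusted p under 0.05, 1 was lower in limma and 0 by the methods' t-test. The magnesium carrier SLC41A1 (-0.75) passed as lower with quantile normalization and with scaling to the median, and was at -1.02 without WT replicate 1. SLC30A2, a zinc carrier into vesicles, read -4.52 and -4.86 in KO with neither WT array well above background, which makes the rise at least 2.19-fold. The fitted log2 fold change was 3.05 (SE 0.22, adjusted p = 0.00229), but with normexp background correction the difference was 0.27 and the call was lost. SLC30A4, another vesicular zinc carrier, read -2.80 and -2.68 in KO against -4.16 and -4.06 in WT, a steady gap of 1.37 (SE 0.16, adjusted p = 0.00498). It was 0.64 with normexp, and without KO replicate 2 its adjusted p was 0.0542. The remaining SLC30 zinc carriers lay between -0.49 and 0.64 and were not called, the highest being SLC30A1, which exports zinc from the cell (adjusted p = 0.0452). SLC39A7, which releases zinc from the endoplasmic reticulum, gave -0.34 to -0.20 over 4 probes.

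SLC31A2, a copper carrier of endosomes and lysosomes, read -1.79 and -1.90 in KO and -2.83 and -3.05 in WT. It was higher by 1.09 (SE 0.17, adjusted p = 0.00990), a difference that fell under 2-fold with quantile normalization (0.91), scaling to the median (0.83), normexp (0.64), without WT replicate 2 (0.98) and in the deposited values, and lost its adjusted p without KO replicate 1 (0.0901) or 2 (0.0773). SLC31A1, the copper importer at the cell surface, read -0.49 (adjusted p = 0.0976). SLC11A1 (NRAMP1), which pumps iron and manganese out of the phagosome of macrophages, showed its probes apart. The brighter probe read 0.46 and 0.81 in KO and 0.26 and 0.07 in WT and was not called (0.47, adjusted p = 0.117), whereas the dimmer read -0.95 and 0.29 against -2.27 and -3.15 and rose by 2.38 (SE 0.53, adjusted p = 0.0244). The mean of both probes was called (1.43, adjusted p = 0.0318), so the choice of probe decides the call. By both probes KO lay above WT, with the same order of arrays as the macrophage, adipocyte, fibroblast and endothelial sums. SLC11A2 (DMT1), the iron importer of gut and red cell precursors, was level (-0.13, adjusted p = 0.544).

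The 7 tested mitochondrial SLC25 genes gave no call in limma (1 KO-higher and 2 KO-lower at an unadjusted p under 0.05, and 0 and 1 by the methods' t-test), although SLC25A23 became lower with quantile normalization, scaling to the median, in the deposited values, with probes averaged and without WT replicate 1. Of all tested named genes, 25.2% were called higher and 12.6% lower. Some SLC25 differences were small but even. All 10 probes of SLC25A3, the mitochondrial phosphate carrier, gave -0.75 to -0.59, all with adjusted p-values of 0.0187 to 0.0468 and both KO arrays under both WT arrays. At its brightest probe SLC25A3 read 5.98 and 6.15 in KO and 6.75 and 6.60 in WT. The difference there, -0.61, moved with the scaling: -0.42 with quantile normalization (adjusted p = 0.0757 in limma) and -0.87 with scaling to the median. With an array left out it lay between -0.69 and -0.53. The 6 probes of SLC25A6, an ADP and ATP exchanger, likewise all lay lower, at -0.67 to -0.39, and 3 of them had an adjusted p under 0.05. Probes of a gene share its transcripts and are not replicates of the comparison. SLC25A27 (0.69), SLC25A15 (0.20) and SLC25A24 (-0.27) were not called. SLC25A23, a calcium-regulated carrier of ATP and phosphate, stood at -0.94 (adjusted p = 0.0406) with a dimmer probe called at -1.37.

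The 6 tested members of SLC35, the family that brings nucleotide sugars into the Golgi and endoplasmic reticulum for glycosylation, ranged from -0.57 to 0.38. None was called in limma (0 KO-higher and 1 KO-lower at an unadjusted p under 0.05, and 1 and 1 by the methods' t-test) or in any alternative run. Calls among all tested named genes came to 25.2% higher and 12.6% lower. SLC35A3, a carrier of UDP-N-acetylglucosamine, was the lowest (-0.57, adjusted p = 0.0780), and SLC35C1, the GDP-fucose carrier, was at 0.18.

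Vitamin and choline carriers had 1 call in 5, a rise, where 25.2% of all named genes were higher and 12.6% lower. SLC46A1, the proton-coupled folate carrier that macrophages also use, read 1.67 and 1.63 in KO and 0.73 and 0.46 in WT. Its rise of 1.05 (SE 0.17, adjusted p = 0.0113) sat at the 2-fold line, and it dropped to 0.79 with scaling to the median and 0.92 without WT replicate 2, with adjusted p-values of 0.0934 and 0.0908 without KO replicate 1 and 2. SLC19A2, the thiamine carrier, was at 0.52 (adjusted p = 0.0519), and the vitamin C carrier SLC23A2 (-0.07) and the riboflavin carrier SLC52A2 (-0.26) were not called. SLC44A4, a choline-like and thiamine pyrophosphate carrier, was not called by its brightest probe, whose values overlapped (-0.79 and -0.07 in KO, 0.15 and -0.17 in WT). Its other tested probes read near -3.7 in KO and between -1.9 and -1.3 in WT, and gave -2.12 and -2.01 with adjusted p-values of 0.00440 and 0.00399.

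Organic ion carriers of the SLC22 family, known for drug and urate handling in kidney and liver, held the widest gap between probes of a gene. SLC22A6, the organic anion carrier OAT1, read -1.55 and -1.38 in KO and -0.12 and 0.14 in WT at the probe that stands for it, a difference of -1.48 (SE 0.18, adjusted p = 0.00580) whose adjusted p was 0.0516 without KO replicate 1. Its other probe read 0.68 and 1.27 in WT and was not well above background in KO, where the fitted values were -6.26 and -6.74. That is a fall of at least 142-fold, against less than 3-fold at the first probe. Both fell, and which transcripts each probe reads cannot be said from the files. SLC22A2 (OCT2) was not called at its brightest probe (-0.31), while a dimmer probe read -5.17 and -5.12 in KO and was not above background in WT, a rise of at least 1.60-fold (adjusted p = 0.00205). SLC22A4, SLC22A7 and SLC10A7 lay between -0.26 and 0.14.

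SLC17A1, a phosphate and urate carrier of the kidney in a family that otherwise fills vesicles and lysosomes, read -6.10 and -5.49 in KO and was not well above background in WT. The bound was a rise of at least 1.02-fold, and normexp left a difference of 0.04, so its fitted 2.14 (adjusted p = 0.00848) rests on signal close to the background.

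**Figure D4:**
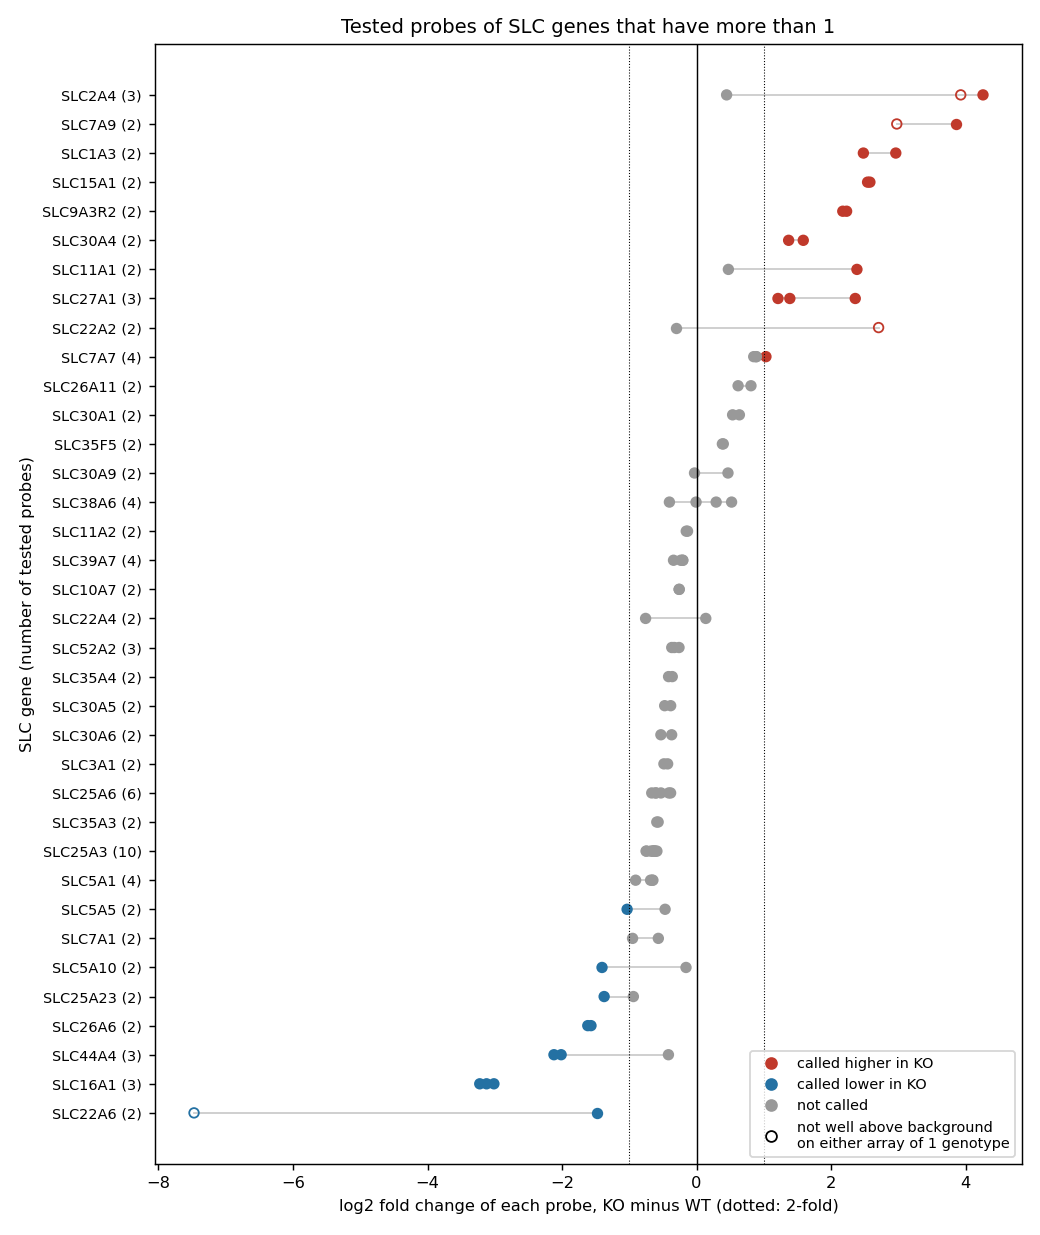
Log2 fold change of each tested probe for 36 of the SLC genes with more than 1, with the number of tested probes after the symbol; grey lines join a gene's probes, red and blue mark calls, and open circles mark probes for which 1 genotype had no array well above background. The 10 SLC25A3 probes and the 3 SLC16A1 probes lie close together, and SLC22A6, SLC2A4, SLC22A2 and SLC11A1 spread the most.

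Over all 37 SLC genes with more than 1 tested probe, 29 had the same call at each of them, 8 were called by some probes and not by others, and 0 had probes called in opposite directions. The 8 were SLC2A4, SLC5A5, SLC5A10, SLC7A7, SLC11A1, SLC22A2, SLC25A23 and SLC44A4. Averaging the probes of a gene added SLC11A1 and SLC22A2 to the rises and SLC25A23 and SLC44A4 to the falls, and took away SLC7A7 and SLC5A10.

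Within the slides, all 14 higher genes were at least 2-fold higher on slide 1 and 10 of the 14 on slide 2, where SLC6A8, SLC7A7, SLC31A2 and SLC46A1 were at 0.90 to 0.92. All 7 lower genes were at least 2-fold lower within each slide. Of the 680 named genes called higher, 661 were at least 2-fold higher on slide 1 and 635 on slide 2. Of the 340 called lower, 329 and 288 were at least 2-fold lower. The calls came from these same arrays, so the slide values describe how even the changes were and are no separate check. The calls that held with each array left out, with both other scalings, with normexp and, where the gene is in that table, in the deposited values were SLC7A9, SLC1A3, SLC15A1 and SLC27A1 among the rises and SLC16A1, SLC4A4, SLC26A6, SLC38A5 and SLC9A3R1 among the falls. SLC7A9 had no deposited values to check, because neither of its probes was well above background on both WT arrays.

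The 16 SLC genes without a tested probe included carriers known mainly from kidney, gut, liver and thyroid, such as SLC2A2 (GLUT2), SLC10A2, SLC26A3, SLC26A4, SLC34A1 and SLC34A2. For 9 of them no probe was well above background on any array, and for 7 some probe was on at least 1 array: SLC7A3, SLC9A2, SLC15A2, SLC22A13, SLC25A25, SLC26A5 and SLC28A1. The others were SLC1A1, SLC5A11 and SLC22A8. These give no comparison, and SLC carriers without a named probe were not analysed here.

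Other transport genes were counted by the same rule, by which 25.2% of all named genes were higher and 12.6% lower. Of 10 tested aquaporins, AQP1 (2.27) and AQP7 (at least 2.88-fold) were higher and AQP11 (-1.47) was lower, AQP7 being the glycerol channel of fat. SLCO2A1, a prostaglandin carrier whose symbol the rule leaves out, was higher by 1.62 (adjusted p = 0.00762). The 9 tested calcium and proton pump genes had 1 call, ATP6V1G2 (-1.20), and the 3 ABC transporters lay between -0.53 and 0.38.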

How the data were processed

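Whole-thymus RNA of 2 IL2RG+/- (KO) and 2 WT pigs had been labelled with Cy3 and hybridised to 1-colour Agilent arrays, per the labels and the files; the methods name Cy-3 for sample and Cy-5 for control RNA, but the files analysed hold 1 channel. The deposited scanner files hold intensity per spot, which the authors made with Feature Extraction 11.0.1.1 (per the submitters' processing notes), already background-corrected, with a flag for spots well above background. A further table of log2 values, deposited for the 27974 probes flagged above background on every array, served as an alternative; its column medians were all 8.49 and each column followed the log2 processed signal of its array (r of at least 0.9998), so its scale is log2 with equal medians, and its further normalization is not given in the sources used here. Control and outlier spots were left out, spots of a probe averaged, and the 75th percentile of each array subtracted on the log2 scale. limma 3.58.1 (R 4.3.3, lmFit and eBayes) compared 2 with 2 arrays over 31959 probes with Benjamini-Hochberg adjustment, calls needing an adjusted p under 0.05 and 2-fold. The scripts were tested on simulated data. With 2 arrays per genotype, array number limits the precision.

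A probe was named through its RefSeq accession and a table of pig genes, which matched 6686 of 7111 accession-bearing probes and gave no position on the arrays' own build, so no coordinates or probe sequences are printed. Substrate classes follow the family number. Where a genotype had no array well above background, "at least" folds set the brighter group's mean against the lowest signal well above background on each dim array or the probe's own signal, if higher. The genes described in full were the called members with the largest changes, overall and within a class, members above background in 1 genotype only, and carriers of known role in lymphocytes, macrophages, fat or muscle; the remaining called genes and those with disagreeing probes were added after their values were seen. The members and lists were chosen with earlier results of these data known. The alternatives were quantile and median scaling, normexp (offset 50) on the median spot and background intensities, the deposited values, other probe filters, slide and replicate blocks, an intensity trend, the mean of a gene's probes, each array left out, a 4-fold threshold and the methods' unpaired test. A few genes counted in the totals are not reported here by name.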

Additional observations from a re-analysis of the deposited data

How the results depend on the processing

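The counts of SLC calls (14 genes higher and 7 lower, 24 probes higher and 15 lower) moved with the following settings. Leaving out each array in turn gave 6 to 15 genes higher and 6 to 9 lower, 13 to 27 probes higher and 12 to 17 lower. The fewest higher calls came without KO replicate 2 and the most without WT replicate 1. Probes higher came to 13 with normexp, 14 in the deposited values and 15 when a probe had to be well above background on all 4 arrays. Scaling to the median moved the median log2 fold change of SLC genes from -0.16 to -0.42. A 4-fold threshold left 9 genes higher and 2 lower and 7 probes lower. The methods' t-test called 0 genes and 0 probes in either direction with the Bonferroni correction, 1 gene each way (SLC30A4 and SLC9A3R1) and 4 probes each way with Benjamini-Hochberg adjustment, and 11 genes higher and 7 lower at an unadjusted p under 0.05. For IL2RG, at -3.41, it gave an adjusted p of 1 and 0.0615. With 2 arrays per genotype that test estimates each probe's spread from these 4 values alone.

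Nothing in the labels says that replicate numbers pair the pigs. Deviations from the group means over tested probes had r = -0.29 for same-numbered arrays and r = 0.29 for arrays of the same slide. With 2 arrays per group these deviations are equal and opposite, so the second value follows from the first. Arrays that share a slide could give it however the pigs are paired, so it cannot decide the pairing. With the replicate block, and with the slide as a block, the same 14 genes stayed higher and the same 7 lower. The crossed pairing is the slide block.

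Signal over background limits SLC30A2, SLC17A1 and the dim probes of SLC2A4, SLC7A9, SLC22A2 and SLC22A6, whose folds are bounds. The files do not show the cell makeup of the tissue, and the KO arrays stand for 2 selected animals.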
